A study of Mus musculus with 4 samples.

Results

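The solute carrier (Slc) genes were taken as every gene whose symbol begins with Slc and that the deposited lists name as the nearest gene of a called peak. They numbered 140 of the 6521 genes named in the 4 lists, and they held 541 of the 17545 called peaks. By symbol, 2 of the 140 are no carriers: Slc9a3r1 encodes the scaffold protein NHERF1 and Slc4a1ap an adaptor protein. ChIP-Seq for the glucocorticoid receptor (GR) and for E2A, the products of the Tcf3 gene that include the bHLH factor E47, was done in the same wild-type (E47+/+) mouse livers, with 2 biological replicates per antibody. The mice were untreated male C57BL/6 animals on chow, collected at ZT 10, the late part of the light phase, and the study's methods give an age of 10 to 16 weeks. The comparison asks where GR and E2A occupied the genome near the same metabolic genes. The GR antibody came from Proteintech and the E2A antibody was sc-349, which does not separate E47 from the other E2A product, E12.

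Several labels contradict each other. The description field of both E2A samples speaks of a GR ChIP, and that of the second E2A sample of E47-/- mice, whereas title, antibody and genotype of both give E2A and E47+/+, which were followed. Numbers of the GR replicates follow the sample titles. File names carry them in reverse. The sample labels give the mice as untreated, while the description of the study's supplementary peak list mentions Dex. Whole livers were used, so binding in few cells and weak binding in many cells cannot be told apart.

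Solute carriers move nutrients, ions, bile acids, drugs and metabolites across membranes, and each family number stands for a group related by sequence. The liver depends on them to take up bile acids and organic anions from the blood (Slc10 and Slco), to take up or release glucose (Slc2 and Slc37), to draw in amino acids for gluconeogenesis and urea synthesis (Slc38 and Slc7), and to pass substrates between cytosol and mitochondria (Slc25). GR is a ligand-activated receptor that binds the glucocorticoid response element (GRE), a pair of inverted half-sites of 6 bp with 3 bp between them, and it raises gluconeogenesis and amino acid catabolism in liver. E2A proteins bind the E-Box CANNTG as dimers.

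The lists held 4291 and 7334 GR peaks in replicates 1 and 2, and 4028 and 1892 E2A peaks. They give the position, width, nearest gene and gene feature of each peak, in mm10 coordinates, but no read count, height or q-value. How many reads stand behind a peak cannot be read from them, and the 95% Wilson intervals of shares cover counting error only. Hepatocyte markers such as Alb, Tat and Apob had GR peaks at 8 of 8 genes and E2A peaks at 7 of 8. GR peaks lay at 1 of 3 Kupffer cell, 2 of 3 endothelial, 0 of 3 stellate, 0 of 3 lymphocyte and 0 of 2 cholangiocyte markers. E2A peaks among those lists lay only at the stellate marker Reln. Over all protein-coding genes 23.8% had a GR peak and 13.9% an E2A peak. With 2 or 3 markers per cell type, the low counts therefore do not show that a cell type was absent.

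Slc genes made up 170 of the GR peaks in replicate 1 and 205 in replicate 2, which is 3.96% and 2.8% of each list. For E2A they made up 113 and 53 peaks, or 2.81% and 2.8%. The GR peaks were near 84 and 114 Slc genes, and the E2A peaks near 79 and 37. Both GR replicates named 76 Slc genes, replicate 1 alone 8 and replicate 2 alone 38. Both E2A replicates named 32, replicate 1 alone 47 and replicate 2 alone 5, so the E2A call of most of these Slc genes rested on replicate 1. The lists were uneven over all genes too, naming 2771 and 5140 genes for GR and 2987 and 1483 for E2A. How many of all genes both replicates named was not counted, so the counts by replicate cannot be read as particular to Slc genes.

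Peaks of the replicates of one antibody that overlapped by at least 1 bp were merged, which left 248 GR and 130 E2A peaks at Slc genes. A GR peak lay nearest to 122 of the 385 annotated protein-coding Slc genes (31.7%, interval 27.2 to 36.5), against 23.8% of all protein-coding genes. An E2A peak lay nearest to 84 of them (21.8%, 18 to 26.2), against 13.9% of all. Of the 140 Slc genes, 66 had peaks of both proteins, a share of 47.1% against 38.4% of all genes with a peak. GR alone was found at 56 Slc genes (40%; 48.6% of all genes with a peak) and E2A alone at 18 (12.9%; 13.1% of all). At 56 genes a GR and an E2A peak overlapped by at least 1 bp, and 10 genes had both proteins at separate places. These 2 counts were not made over all genes, so they cannot be read as particular to Slc genes. Without E2A replicate 1 the genes with an overlap numbered 28.

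Merged peaks at Slc genes were called in both replicates in 118 of 248 cases for GR (47.6%, 41.4 to 53.8; 31.1% over all genes) and in 36 of 130 cases for E2A (27.7%, 20.7 to 35.9; 23.4% over all genes). A promoter position was given to 99 of the 248 GR peaks (39.9%, 34 to 46.1), whereas 50.4% of all GR peaks lay at promoters. The share was 33.5% in GR replicate 1 and 43.9% in replicate 2, so it differed between the replicates, and over all genes it was 34.3% and 57.4%. For E2A, 34 of 130 peaks were at promoters (26.2%, 19.4 to 34.3; 39.1% over all genes). Introns held 61 of the E2A peaks (46.9%, 38.6 to 55.5), compared with 28.7% of all E2A peaks. The GR peaks outside promoters lay at a median of 9811 bp from the annotated start site, against 13510 bp for all such GR peaks. These shares stand side by side without a test, and genes and peaks were not independent of each other.

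**Figure D1:**
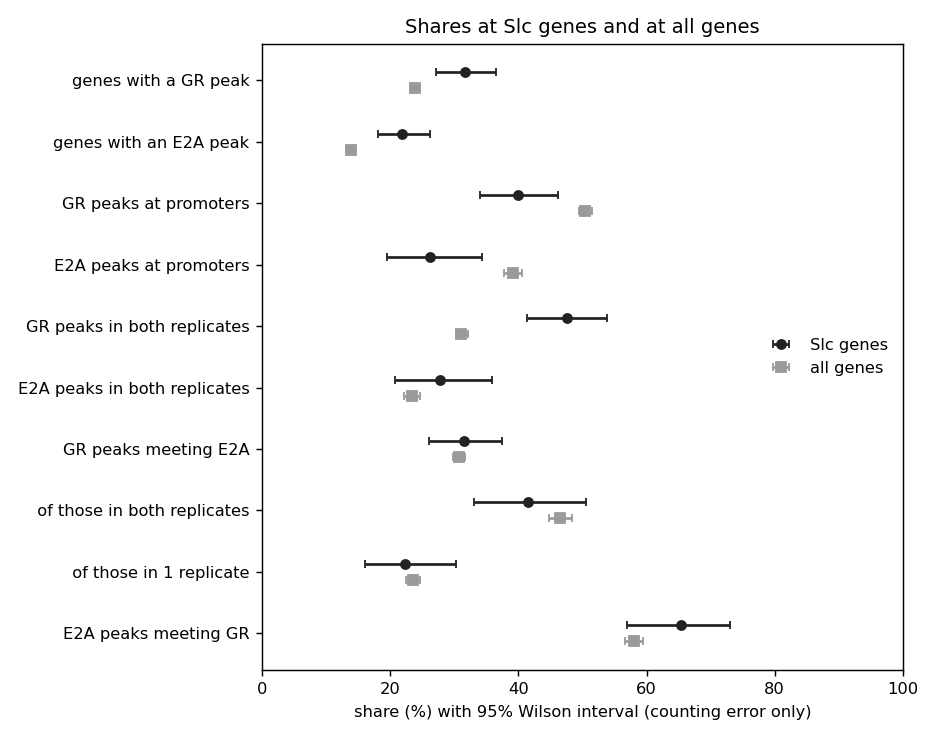
Shares of genes and of merged peaks (x axis, %) at Slc genes (black circles) and at all genes (grey squares), with 95% Wilson intervals that cover counting error only. GR peaks at Slc genes were called in both replicates in 47.6% of cases against 31.1% for all genes, and lay at promoters in 39.9% against 50.4%.

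An E2A peak overlapped 78 of the 248 GR peaks at Slc genes (31.5%, 26 to 37.5), and the share over all genes was 30.7%. Conversely, 85 of 130 E2A peaks at Slc genes overlapped GR (65.4%, 56.9 to 73.0; 58.1% over all genes). Without E2A replicate 1 the share of GR peaks that met E2A fell to 13.7% (34 of 248), and among peaks of both replicates of each antibody it was 13.6%. Of the promoter GR peaks 28 of 99 were shared (28.3%, 20.4 to 37.8), and of the remaining GR peaks 50 of 149 (33.6%, 26.5 to 41.5). This difference did not pass the threshold (odds ratio 0.781, Fisher's exact test, two-sided, adjusted p = 0.41). Without E2A replicate 1 the odds ratio was 0.416, with an adjusted p = 0.052 by the same exact test.

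GR peaks called in both replicates were shared with E2A more often, in 49 of 118 cases (41.5%, 33 to 50.5) against 29 of 130 peaks called in 1 replicate (22.3%, 16 to 30.2). The odds ratio was 2.47 (Fisher's exact test, two-sided, p = 0.0016, adjusted p = 0.0062). All genes showed the shares 46.5% and 23.6%. Peaks of both replicates were also wider, with a median of 562 bp against 342 bp, and the part of width in the difference was not tested on its own. With sharing defined by peak centres within 250 bp, the odds ratio was 1.65 and the adjusted p = 0.12 by the same exact test, and with 1 GR peak per gene it was 2.49 with an adjusted p = 0.079.

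Carriers were grouped into classes by family number alone, so that a member such as Slc5a6, which carries vitamins, stands with the sugar carriers of its family. Mitochondrial carriers (Slc25) were the class with the largest number of occupied genes. Of 47 annotated Slc25 genes 24 had a GR peak (51.1%), 15 an E2A peak (31.9%) and 12 a shared peak (25.5%). Fatty acid carriers (Slc27) had GR peaks at 3 of 6 genes and metal carriers at 14 of 32 (43.8%). Amino acid carriers had GR peaks at 14 of 62 genes (22.6%) and E2A peaks at 15 (24.2%), and organic anion and cation carriers had GR peaks at 10 of 41 (24.4%) and E2A peaks at 7 (17.1%). Acid-base and inorganic ion carriers had GR peaks at 20 of 65 genes (30.8%), sugar carriers at 9 of 32 (28.1%), nucleoside and nucleotide sugar carriers at 12 of 34 (35.3%) and bile acid and steroid carriers at 3 of 9 (33.3%). As at the amino acid carriers, E2A outnumbered GR at the carboxylate and fuel carriers, with 7 against 5 of 19 genes. The same held at the vitamin and cofactor carriers, with 5 against 4 of 18. Over all protein-coding genes the shares were 23.8% for GR and 13.9% for E2A, so that for GR the amino acid and the organic anion and cation carriers stood near the share of all genes. The classes are small, and differences between them were not tested.

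**Figure D2:**
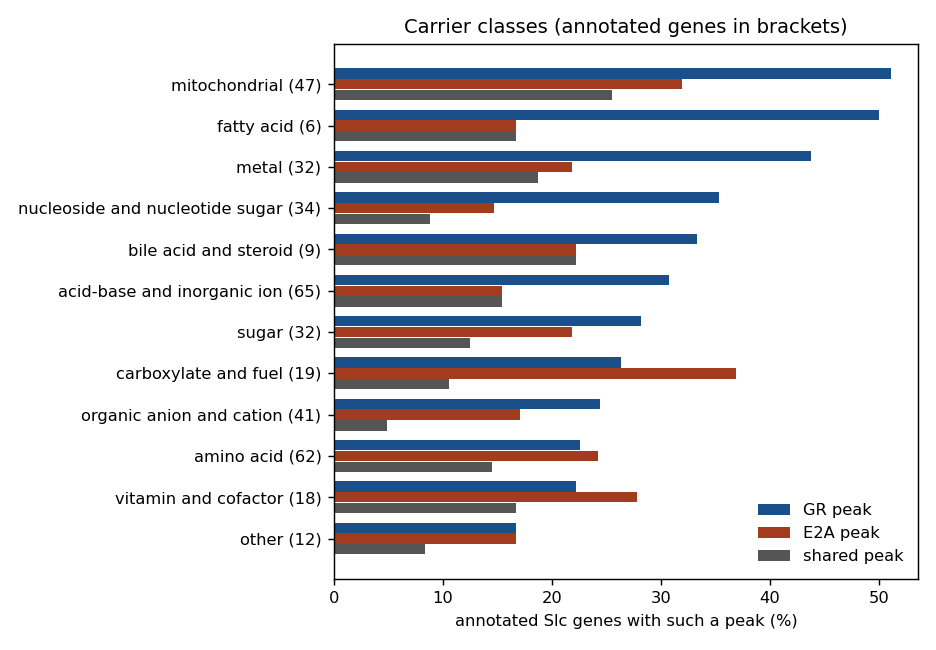
Share of the annotated protein-coding Slc genes of each carrier class (x axis, %) with a GR peak (blue), an E2A peak (red) or a GR peak that overlaps an E2A peak (grey), with the number of annotated genes in brackets, leaving out symbols that are no carriers or unlisted. GR peaks lay at 51.1% of the Slc25 genes and at 22.6% of the amino acid carriers.

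Positions of the peaks are given by class without a test, beside promoter shares over all genes of 50.4% for GR and 39.1% for E2A peaks. Among amino acid carriers 10 of 39 GR peaks (25.6%) and 1 of 21 E2A peaks (4.76%) were at promoters. Among Slc25 genes 24 of 51 GR peaks (47.1%) and 10 of 30 E2A peaks (33.3%) were. Organic anion and cation carriers had 7 of 26 GR peaks (26.9%) and 0 of 9 E2A peaks at promoters, and 4 of their 26 GR peaks met E2A (15.4%, 6.15 to 33.5). All 12 E2A peaks at acid-base and inorganic ion carriers overlapped a GR peak (lower end of the interval 75.8%), against 58.1% of all E2A peaks. At Slc25 genes 24 of 30 E2A peaks did (80.0%, 62.7 to 90.5), and without Slc25a25 and Slc25a47, left out after the values were seen, 12 of 18 did (66.7%, 43.7 to 83.7).

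At 24 Slc genes (17.1%, 11.8 to 24.2) peaks were called in all 4 lists, which holds for 9.91% of all genes with a peak. Peaks in 1 list only were found at 47 Slc genes (33.6%; 45.9% of all genes with a peak). The 24 genes comprise 6 mitochondrial carriers (Slc25a15, Slc25a25, Slc25a30, Slc25a33, Slc25a47 and Slc25a51), 5 amino acid carriers (Slc38a2, Slc38a4, Slc3a1, Slc7a2 and Slc7a10), 3 ion carriers (Slc8b1, Slc12a3 and Slc26a1), the metal carriers Slc39a14 and Slc40a1, and the nucleoside and nucleotide sugar carriers Slc29a1 and Slc35d2. The others are Slc10a2, Slc13a1, Slc27a2, Slc45a1, Slco1b2 and the scaffold gene Slc9a3r1. Slc38a4 carried 24 called peaks over the lists and ranked 8 among the 6521 genes, and Slc25a25 with 22 ranked 17. Rank counts depend on the nearest-gene assignment and on how often a broad region was split.

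**Figure D3:**
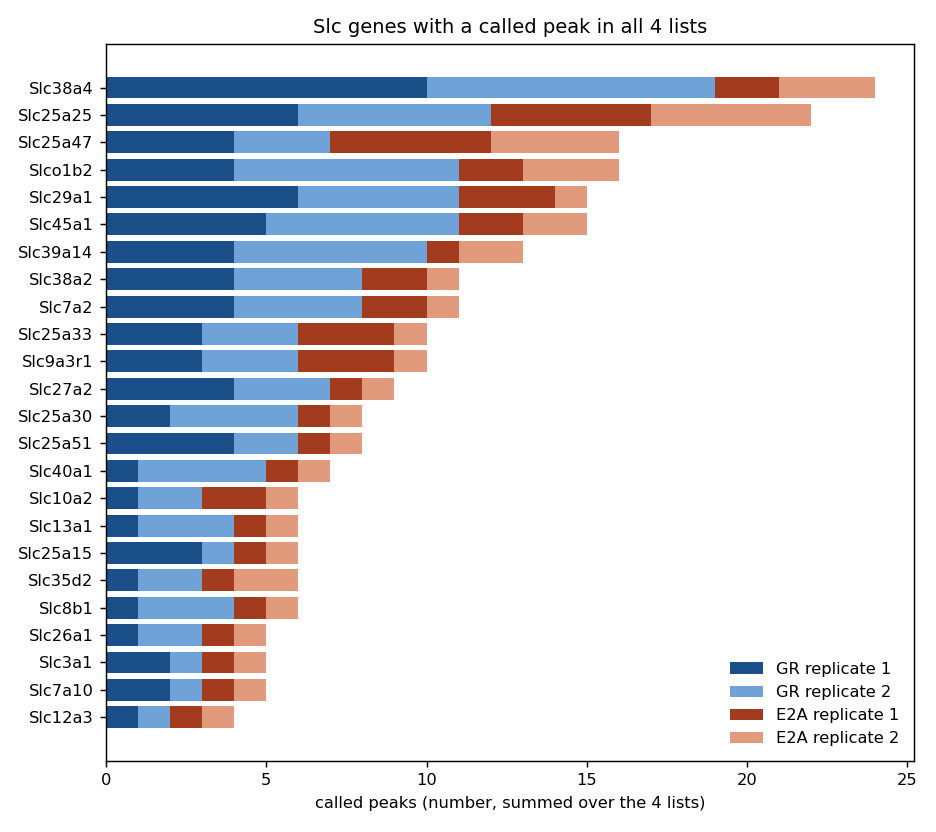
Number of called peaks (x axis) at the 24 Slc genes with a peak in all 4 lists, stacked by list. Slc38a4 had 10 and 9 GR peaks and 2 and 3 E2A peaks, whereas Slc25a47 had 4 and 3 GR peaks and 5 and 4 E2A peaks.

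Among the mitochondrial carriers, Slc25a25, which exchanges ATP-Mg for phosphate across the inner membrane, had 6 GR peaks in each replicate and 5 E2A peaks in each replicate. In GR replicate 2 a single peak of 5344 bp at chr2:32419193-32424536 covered the downstream promoter, and in the same interval replicate 1 had 4 GR peaks, E2A replicate 1 had 3 peaks and E2A replicate 2 had 3. All 6 merged E2A peaks at the gene overlapped GR. A further region in all 4 lists lay at the 3′ end of the gene, at chr2:32412892-32415193. The upstream promoter held 1 GR peak, of replicate 2 only.

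Slc25a47, a mitochondrial carrier made mainly in liver, had the widest called peak of all Slc genes, 7786 bp at chr12:108850906-108858691 in GR replicate 2. Within it GR replicate 1 had 3 peaks covering 4436 bp, and the E2A replicates had 4 peaks each, covering 3761 and 4038 bp. In each list the peaks reached from the promoter to the 3′ untranslated region or beyond it, in 1 piece only in GR replicate 2. Slc25a30 had GR peaks at its promoter in both replicates, and a site 6055 bp upstream of the start was called in all 4 lists.

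Other Slc25 genes had fewer peaks. Slc25a15, the ornithine carrier of the urea cycle, had 3 and 1 GR peaks and 1 and 1 E2A peaks, and its intronic E2A peak at chr8:22390784-22391285 overlapped a GR peak of replicate 1. Slc25a51, the NAD+ carrier, had 4 and 2 GR peaks and 1 and 1 E2A peaks, with the shared site 4837 bp upstream. Slc25a33, a pyrimidine nucleotide carrier, had 3 GR peaks in each replicate and 3 and 1 E2A peaks. For the aspartate-glutamate carrier Slc25a13 these were 4 and 2 GR peaks and 2 and 0 E2A peaks, for the dicarboxylate carrier Slc25a10 they were 2 and 3 and 0 and 1, and for the citrate carrier Slc25a1 they were 1 and 2 and 1 and 0. At these 3 genes 1 promoter GR peak overlapped an E2A peak of a single replicate. The glutamate carrier Slc25a22 had 1 GR peak, in replicate 2, and the carnitine-acylcarnitine carrier Slc25a20 had none.

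**Figure D4:**
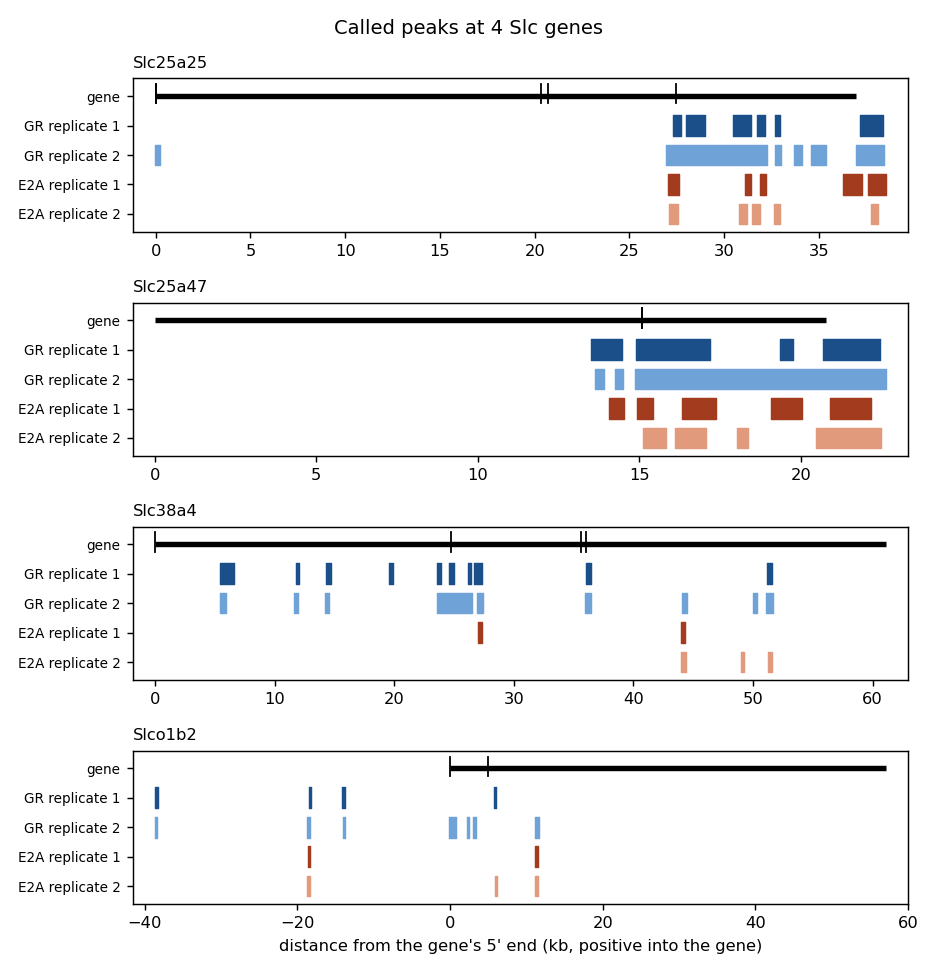
Called peaks of each list at Slc25a25, Slc25a47, Slc38a4 and Slco1b2, by distance from the 5′ end of the annotated gene (x axis, kb, positive into the gene). Black bars mark the gene and ticks its annotated start sites. The single GR replicate 2 peaks of 5344 bp at Slc25a25 and 7786 bp at Slc25a47 span several narrower peaks of the other lists, while the 4 merged E2A peaks at Slc38a4 lie outside its promoters.

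The amino acid carriers of family 38 bring small neutral amino acids into hepatocytes. Slc38a4 encodes a sodium-coupled carrier typical of liver, and 10 merged GR peaks lay between 97004252 and 97050543 on chromosome 15, 7 of them in both replicates. A GR peak of 2919 bp at chr15:97029424-97032342 lay at an annotated promoter and met no E2A peak, and the same held for a second promoter peak at chr15:97019468-97020037. E2A overlapped 3 GR peaks in introns, and only the E2A peak at chr15:97011593-97012004 was called in both E2A replicates. Thus 3 of the 4 E2A peaks at this gene overlapped GR, while 7 of the 10 GR peaks, both promoter peaks included, met no E2A. Slc38a2, which carries alanine and glutamine, had 4 GR peaks in each replicate and 2 and 1 E2A peaks, and its promoter was called in all 4 lists at chr15:96698702-96699918. There the E2A peaks of replicates 1 and 2 overlapped each other only at their ends. Slc38a3, a glutamine carrier of hepatocytes, had 3 GR peaks in each replicate, among them a promoter peak of 2517 bp, and 1 E2A peak of replicate 1 that met none of them.

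Slc7a2, the cationic amino acid carrier that supplies arginine, had 4 GR peaks in each replicate and 2 and 1 E2A peaks. Its intronic site at chr8:40876304-40877262 was called in all 4 lists, and the promoter peak of 1406 bp was a GR peak without E2A. For Slc7a10, a carrier of small neutral amino acids, the site in all 4 lists lay 17916 bp upstream at chr7:35168000-35168469. The cystine and dibasic amino acid carrier subunit Slc3a1 had 2 and 1 GR peaks and 1 and 1 E2A peaks, and E2A met the GR peak of replicate 1 in an intron. The branched-chain amino acid carrier Slc43a1 had 1 GR peak in each replicate and 0 and 1 E2A peaks, and the taurine carrier Slc6a6 had 1 and 2 GR and 2 and 0 E2A peaks. The shared heavy chain Slc3a2 had a promoter GR peak in replicate 2 only, the glutamate carrier Slc1a2 an E2A peak in replicate 1 only, and Slc7a5, a light chain that pairs with Slc3a2, had no peak.

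The main glucose carrier of the hepatocyte membrane, Slc2a2 (GLUT2), had 5 and 4 GR peaks and 2 and 0 E2A peaks. Only 2 of its 7 merged GR peaks were called in both replicates, at chr3:28695481-28695996, 1907 bp upstream of the start, and at chr3:28722659-28723018. Both its E2A peaks overlapped a GR peak of a single replicate. One of these overlaps, at chr3:28721839-28722190, is called a promoter in the deposited annotation, while the nearest GENCODE start of Slc2a2 is 23936 bp away. Slc37a4, the glucose-6-phosphate carrier of the endoplasmic reticulum that serves glucose release, had 2 GR peaks in each replicate, both at promoters, and both overlapped an E2A peak of replicate 1. Slc2a1 had a promoter GR peak in replicate 2 only, and Slc2a8, Slc2a9 and Slc5a9 had no peak. The fructose carrier Slc2a5, named after its values were seen, had 2 and 1 E2A peaks and no GR peak.

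Slc45a1, a sugar carrier known mostly from brain, had 5 and 6 GR peaks and 2 E2A peaks in each replicate. All lay outside promoters, between 32793 and 96696 bp upstream, and the nearest-gene rule alone ties them to Slc45a1. Of its 6 merged GR peaks 5 were called in both replicates, and the one at chr4:150684967-150687438 was in all 4 lists.

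The sodium-bile acid cotransporter Slc10a1 (NTCP), the main route of bile acids into hepatocytes, had 2 GR peaks in each replicate and 1 and 0 E2A peaks. GR occupied its promoter at chr12:80967901-80968971 without E2A, and the upstream GR peak at chr12:80975924-80976707 overlapped the E2A peak of replicate 1. Slc10a2, the ileal bile acid carrier, had a site in all 4 lists that lies 1390441 bp from its start, so that the gene is named only because it is the nearest. Both subunits of the basolateral bile acid exporter, Slc51a and Slc51b, had no peak.

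Slco1b2, an organic anion transporter of the sinusoidal membrane that takes up bile acids, bilirubin conjugates and drugs, had 4 and 7 GR peaks and 2 and 3 E2A peaks. The upstream site at chr6:141610800-141611346 was called in all 4 lists, and an intronic site at chr6:141640663-141641192 in both E2A replicates and GR replicate 2. The promoter GR peak, of replicate 2 only, met no E2A. In the same group Slco2b1 had 4 and 2 GR peaks and no E2A peak, Slco1a4 had 1 GR peak in each replicate at different places, and Slco1a1 and Slco2a1 had no peak. The carnitine carrier Slc22a5 had 2 GR peaks in each replicate and an E2A peak of replicate 2 that met none of them, and the organic anion carrier Slc22a7 and the cation exporter Slc47a1 each had a promoter GR peak in both replicates.

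Metal carriers were led by Slc39a14, a zinc, iron and manganese importer of hepatocytes, with 4 and 6 GR peaks and 1 and 2 E2A peaks. Its intronic site at chr14:70336220-70337507 was called in all 4 lists, and its 2 promoter GR peaks were free of E2A. The iron exporter Slc40a1 had 1 and 4 GR peaks and 1 E2A peak in each replicate, and its intronic E2A peak overlapped a GR peak of replicate 2 only. Its GR peaks at chr1:45898030-45898337 and chr1:45905211-45905526 lie nearer to Gm5269 in GENCODE. The manganese exporter Slc30a10 had no peak. Slc41a2, a magnesium carrier that was also picked after its values were seen, had 1 and 3 E2A peaks and no GR peak, the largest E2A count among the 18 Slc genes with E2A alone.

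Slc29a1, the equilibrative nucleoside carrier ENT1, had 6 and 5 GR peaks and 3 and 1 E2A peaks, and 5 of 6 merged GR peaks were called in both replicates. A site near the 3′ end of the gene, at chr17:45585290-45585900, was in all 4 lists. The fatty acid carrier Slc27a2 had 4 and 3 GR peaks and 1 E2A peak in each replicate. Its promoter GR peak overlapped E2A of replicate 1, and an intronic GR peak overlapped E2A of replicate 2, so no E2A peak was repeated. Slc27a5, which also activates bile acids, had 2 and 1 GR peaks at promoters and no E2A peak, Slc27a4 a promoter GR peak in replicate 2 only, and Slc27a1 had none. Among carboxylate carriers Slc16a1 (MCT1) had 2 GR peaks in each replicate and 1 and 0 E2A peaks, and the aromatic amino acid carrier Slc16a10 had 2 and 1 GR peaks and no E2A peak. The citrate carrier Slc13a5 and the phosphate and urate carrier Slc17a3 had no peak. The sulfate carrier Slc13a1 had 1 and 3 GR peaks and 1 E2A peak in each replicate, none shared, and its GR peaks lay 39750 bp or more upstream. Its E2A peak lies nearer to Tas2r118 in GENCODE. The vitamin carriers Slc19a1 and Slc19a2 had 1 GR peak in each replicate, and Slc19a2 and the phosphate carrier Slc20a1 each shared a promoter peak with E2A of a single replicate. The choline carrier Slc44a1 had 1 GR peak in each replicate at different places and 2 and 0 E2A peaks, each sharing a GR peak.

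Of 52 transporters listed for their known role in liver, 37 had a GR peak, 33 of them in both replicates, and 29 an E2A peak, 12 of them in both replicates. A shared peak was found at 24. Of all protein-coding genes 23.8% had a GR peak and 13.9% an E2A peak. The list was made by hand with the liver in mind, so its counts are a description of these genes.

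Sites were also formed over all 4 lists together. Of 293 sites at Slc genes 16 (5.46%), at 15 genes, were called in every list, and they ranged in width from 338 to 7786 bp. Of these, 3 were at promoters, 5 in introns and 5 between genes, and the rest lay in untranslated regions or just downstream. GR in both replicates without E2A was the pattern of 69 sites (23.5%), and GR replicate 2 alone that of another 69. Sites at other genes were not counted in this way, so these shares have no background beside them. Slc8b1, the mitochondrial sodium-calcium exchanger, had 1 and 3 GR peaks and 1 E2A peak in each replicate, with 2 GR peaks shared. The scaffold gene Slc9a3r1 had 3 GR peaks in each replicate and 3 and 1 E2A peaks, and the nucleotide sugar carrier Slc35d2 had 1 and 2 GR peaks and 1 and 2 E2A peaks. The site assigned to the sulfate carrier Slc26a1 overlaps the start of Idua, and the one in Slc12a3, the thiazide-sensitive cotransporter known from kidney, lies in an intron 24821 bp from the start.

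The stretches that all 4 lists had in common are shown for the sites where the common stretch was 300 bp or shorter, outside untranslated regions and within 100 kb of the gene, because they narrow down where GR and E2A coincided. The promoter of Slc38a2 also met these limits, but its common stretch of 4 bp was too short to show. They are read 5′ to 3′ on the plus strand of GRCm38 (mm10), and capitals mark each E-Box CANNTG, which reads the same on both strands.
Slc9a3r1, intron, chr11:115165094-115165315: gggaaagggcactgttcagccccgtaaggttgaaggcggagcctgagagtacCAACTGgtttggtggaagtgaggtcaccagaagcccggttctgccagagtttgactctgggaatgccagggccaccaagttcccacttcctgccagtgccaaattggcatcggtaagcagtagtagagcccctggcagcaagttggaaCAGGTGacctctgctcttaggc
Slc35d2, intron, chr13:64123906-64124033: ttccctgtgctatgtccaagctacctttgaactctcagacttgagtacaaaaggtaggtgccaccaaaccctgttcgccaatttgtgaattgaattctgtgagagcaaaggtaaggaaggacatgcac
Slc25a30, upstream, chr14:75793142-75793414: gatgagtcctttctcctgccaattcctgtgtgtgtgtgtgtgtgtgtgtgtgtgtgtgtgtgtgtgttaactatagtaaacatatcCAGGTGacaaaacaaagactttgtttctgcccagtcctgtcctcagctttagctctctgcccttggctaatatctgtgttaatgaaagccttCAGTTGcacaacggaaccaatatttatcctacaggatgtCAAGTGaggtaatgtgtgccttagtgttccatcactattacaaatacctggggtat
Slco1b2, upstream, chr6:141610990-141611107: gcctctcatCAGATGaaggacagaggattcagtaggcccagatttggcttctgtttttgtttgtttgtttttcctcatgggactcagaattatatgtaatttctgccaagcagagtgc
Slc12a3, intron, chr8:94354063-94354312: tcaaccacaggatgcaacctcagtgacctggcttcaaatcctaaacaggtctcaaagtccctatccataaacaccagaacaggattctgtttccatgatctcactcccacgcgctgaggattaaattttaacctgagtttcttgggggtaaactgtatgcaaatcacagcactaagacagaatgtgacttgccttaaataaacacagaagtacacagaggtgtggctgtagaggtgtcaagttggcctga

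The 5 stretches held 2, 0, 3, 1 and 0 E-Boxes, and the closest GRE match had 2 mismatches at Slc9a3r1, 4 at Slc35d2 and 3 at each of the other genes. These counts cover the common stretches only. Elsewhere in its merged GR peak, Slc12a3 held a GRE match with 1 mismatch. The central 200 bp of the GR peak at Slc35d2 held 1 E-Box. That whole sites lacked these letters was therefore not shown. In windows of 200 bp at the centres of peaks outside promoters, an E-Box was present in 116 of 148 GR windows at Slc genes (78.4%, 71.1 to 84.2) and in 68.3% of all such GR windows. For E2A these shares were 68 of 95 (71.6%, 61.8 to 79.7) and 68.5%. Among GR windows that met E2A, 39 of 49 held an E-Box (79.6%) and among those that did not, 77 of 99 (77.8%). The E-Box CACGTG was in 6 of the 148 GR windows (4.05%; 4.99% of all) and CAGGTG in 30 (20.3%; 15.2% of all). No rate for windows outside peaks is given here. The shares of E-Boxes and of GRE matches thus do not show that either is more frequent in peaks than elsewhere.

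GRE matches, counted with up to 2 mismatches in the same windows on peaks of at most 2000 bp, were found in 10 of 95 promoter GR peaks at Slc genes (10.5%, 5.82 to 18.3) and in 38 of 148 others (25.7%, 19.3 to 33.3). The odds ratio was 0.341 (Fisher's exact test, two-sided, p = 0.0047, adjusted p = 0.0093). Over all genes 7.54% of promoter and 28.1% of other GR windows had a match. The promoter windows had a median GC content of 67.5% and the others of 49%, and the part of base composition in the difference was not tested. Requiring at most 1 mismatch left 2 of 95 and 12 of 148 matches and an adjusted p of 0.14 by the same exact test. The call was also lost in peaks of both replicates (odds ratio 0.224, adjusted p = 0.064, exact test) and in the wider 50% of the peaks (odds ratio 0.311, adjusted p = 0.067, exact test).

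Outside promoters, GR peaks that met an E2A peak had a GRE match in 7 of 49 cases (14.3%, 7.1 to 26.7) and those without E2A in 31 of 99 (31.3%, 23 to 41). The odds ratio was 0.366 (Fisher's exact test, two-sided, p = 0.029, adjusted p = 0.038), and over all genes the shares were 20.2% and 31.7%. GR peaks at Slc genes that met E2A, promoter peaks included, were wider, with a median of 581.5 bp against 397.5 bp. A window of 200 bp thus covered less of them, and the part of width in the difference was not tested. The call was lost under 11 of 14 alternatives, and the direction changed under 1. In windows of 400 bp the counts were 18 of 49 and 36 of 99, with an odds ratio of 1.02, and without GR replicate 2 the odds ratio was 0.667 with an adjusted p of 0.61 by the same exact test. With peaks of both replicates only, 1 of 12 and 16 of 57 had a match, an odds ratio of 0.233 with an adjusted p of 0.27 by the exact test.

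**Figure D5:**
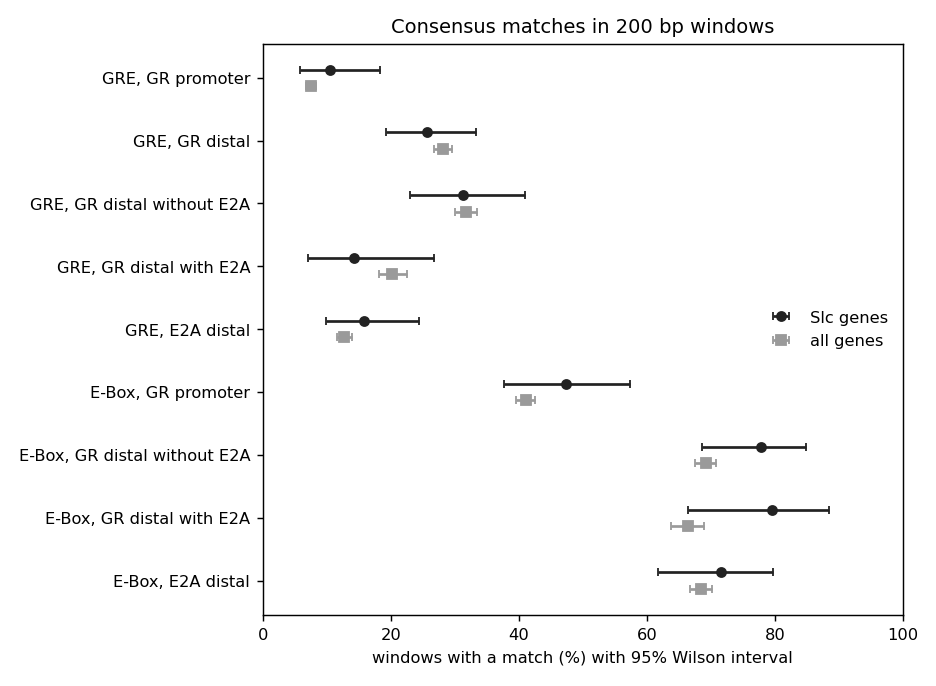
Share of 200 bp windows at peak centres (x axis, %) with a GRE match of up to 2 mismatches or an E-Box CANNTG, at Slc genes (black circles) and all genes (grey squares), with 95% Wilson intervals. GRE matches were in 10.5% of promoter and 25.7% of other GR windows at Slc genes.

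Over their whole length, 4 of 149 GR peaks outside promoters at Slc genes (2.68%, 1.05 to 6.7) held a GRE match with no mismatch, and so did 2.5% of all such peaks. With up to 1 mismatch the shares were 15.4% and 14%. The 4 matches with no mismatch are shown with the bases around them, since they are the places outside promoters where the sequence comes nearest to the GRE. The match at Slc7a2 follows, from 19 peaks tied at 1 mismatch, of which it is the first in genome order among those called in all 4 lists. The last is that in the promoter peak of Slc38a4, which was added after its match was seen. They are plus strand sequences of GRCm38 (mm10), 5′ to 3′, with the matched 15 bp in capitals.
Slc45a1, intergenic, chr4:150749045-150749095: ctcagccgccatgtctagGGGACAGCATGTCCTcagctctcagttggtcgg
Slco1c1, within Pde3a, chr6:141432454-141432504: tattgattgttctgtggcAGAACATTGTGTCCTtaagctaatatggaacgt
Slc45a3, intron, chr1:131964275-131964325: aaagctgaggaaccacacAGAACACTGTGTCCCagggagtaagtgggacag
Slc25a30, upstream, chr14:75803974-75804024: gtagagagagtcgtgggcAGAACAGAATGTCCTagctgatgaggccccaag
Slc7a2, intron, chr8:40877056-40877106: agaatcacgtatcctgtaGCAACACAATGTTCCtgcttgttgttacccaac
Slc38a4, promoter, chr15:97019924-97019974: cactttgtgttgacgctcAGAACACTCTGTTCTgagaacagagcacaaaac

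The matches at Slc45a1, Slco1c1, Slc45a3, Slc25a30 and Slc38a4 have 0 mismatches, and that at Slc7a2 has 1. The peaks at Slc45a1, Slco1c1 and Slc38a4 were called in both GR replicates, that at Slc45a3 in replicate 1 and that at Slc25a30 in replicate 2. The Slc7a2 peak was called in all 4 lists, but its E2A replicate 2 peak ends at 40876980, short of the match. The match assigned to Slco1c1, a thyroxine carrier, lies 91672 bp upstream of its start inside an intron of Pde3a. A match is a description of the letters and does not show that GR binds there.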

How the data were processed

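GR and E2A ChIP-Seq peaks of wild-type mouse liver were analysed, with 2 biological replicates each. Alignment by the authors used BWA-MEM and the mm10 build. Duplicates were taken out by Picard, uniquely mapped pairs were retained and downsampled (GR to 18 mio and E2A to 22 mio), and MACS2 was run on each sample. The submitters' processing notes list BWA 0.7.13, Picard 1.119 and MACS2 2.1.0, and the methods give other versions of Picard and MACS2. The control, the threshold and the annotation tool are not given in the sources used here. The deposited values are starts, ends, widths and distances to start sites in bp, with no normalization. Downsampling sets the depth equal within an antibody, and the depth per peak is unknown. The deposited peak interval files without annotation were not used.

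Slc genes were the symbols that begin with Slc, and all 140 matched the GENCODE M21 annotation. Overlapping peaks (1 bp or more) of the replicates of an antibody were merged, and GR and E2A peaks that overlapped by 1 bp or more were called shared. A merged peak was a promoter peak if any of its called peaks was annotated as promoter in the deposited lists. Peaks so annotated lay at most 1000 bp from a start site, but not every peak that near was annotated as promoter. Intronic peaks 895 bp (GR) and 743 bp (E2A) from a start of Slc29a1, and 532 bp (E2A) from that of Slc25a23, were counted as outside promoters. The GRE consensus was searched in RefSeq's GRCm38.p6 sequence with up to 2 mismatches in 200 bp windows. The 4 tests were two-sided Fisher's exact tests on peaks, adjusted by the Benjamini-Hochberg method. Peaks are not replicates of an animal, and p-values describe these lists. Genes were named if they had peaks in all 4 lists, were among the 10 with most called peaks or the 5 with the widest, had one of the 5 closest distal GRE matches (ties broken by the number of lists, then by genome order), or were among 52 listed liver transporters. The values of 1 gene named by this rule are not reported here. The members and lists were chosen with earlier results of these data known. Alternatives changed the replicates, the overlap, the peak widths, the gene assignment, the motif window and the mismatches. The code was tested on simulated data. Python 3.11.15, pandas 2.3.3, numpy 2.4.6, scipy 1.17.1, statsmodels 0.14.6, pysam 0.24.0, samtools 1.23.1 and matplotlib 3.10.9 were used.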

Additional observations from a re-analysis of the deposited data

How the results depend on the processing

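Of 127 values under the alternatives, 85 were kept, 25 moved further, 16 lost a call and 1 changed direction. Kept means, for a test, the same direction and side of the threshold and, for a share, a value within the reported interval. A count of genes was kept if it stayed within a fixed fold margin, which was not its interval. Several alternatives could not alter a value, so the number kept overstates how well the results held. Leaving out an E2A replicate or redefining the overlap, for example, cannot alter the number of genes or the promoter share of GR peaks. With peaks of both replicates only, GR peaks lay at 71 Slc genes, E2A peaks at 29 and shared peaks at 15, 13.6% of GR peaks met E2A and 55.6% of E2A peaks met GR, and 16.7% of E2A peaks were at promoters. Leaving out each replicate in turn gave 84 to 122 Slc genes with GR (122 in the text), 37 to 84 with E2A and 28 to 53 with a shared peak, sharing of 13.7 to 38.2% of GR and 51.5 to 73.6% of E2A peaks, and promoter shares of 33.5 to 43.9% for GR and 17 to 26.5% for E2A. The low ends for E2A genes, shared genes and GR sharing came without E2A replicate 1. With the wider 50% of the peaks of each list, GR lay at 77 genes, E2A at 51 and shared peaks at 30, and 25.8% of GR peaks met E2A. With any Slc start site within 50 kb these were 189, 142 and 103 genes, and promoter shares were 53.7% for GR and 42.6% for E2A. With peak centres within 250 bp, 51.5% of E2A peaks met GR.

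The odds ratio for E2A sharing of GR peaks in both replicates against 1 replicate was 1.65 with centres within 250 bp and 2.49 with 1 GR peak per gene, neither past the threshold, and it ranged from 1.87 to 3.61 without an E2A replicate. It cannot be formed from peaks of both replicates only or without a GR replicate. Promoter against other GR peaks kept the direction of the GRE difference, with odds ratios of 0.224 in peaks of both replicates, 0.311 in the wider 50% and 0.244 at 1 mismatch no longer significant, and of 0.279 to 0.341 without 1 replicate. For GRE matches with and without E2A the call was lost in peaks of both replicates (0.233), at an overlap of 50% of the shorter peak (0.38), with centres within 250 bp (0.355), in the wider 50% (0.136), by start sites within 50 kb (0.534), for carriers only (0.384), with 1 GR peak per gene (0.156) and at 1 mismatch (0.167), and it turned to 1.02 in 400 bp windows. Without 1 replicate it ranged from 0.299 to 0.667, and the call was kept only without E2A replicate 2. For sharing of promoter and other GR peaks the adjusted p stayed above the threshold in all 12 alternatives run, but the odds ratio moved. Without E2A replicate 1, 8 of 99 promoter and 26 of 149 other peaks were shared (odds ratio 0.416, adjusted p = 0.052, exact test). In peaks of both replicates these were 3 of 48 and 13 of 70 (odds ratio 0.292, adjusted p = 0.092, exact test). The causes were not tested.

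No paired analysis was possible because the tests compare peaks within pooled lists and no test is run over samples. Heights and read counts per peak are not in the lists used, so strength of binding was not measured, and a nearest gene need not be the gene a site acts on. Of the GR peaks outside promoters at Slc genes, 143 of 149 (96.0%) had the same gene nearest in GENCODE.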
